A study of Taeniopygia guttata with 2 samples.

Results

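The genes described here encode the pore-forming subunits of the AMPA and kainate receptors, the ionotropic glutamate receptors that carry fast excitatory transmission. They were chosen by name, not by their values. The list holds 9 genes, of which 8 have a column in the count table: the AMPA subunits GRIA1, GRIA2, GRIA3 and GRIA4, and the kainate subunits GRIK1, GRIK2, GRIK3 and GRIK4. GRIK5 was not analysed here. The table has 17430 gene columns, 12787 of them with a gene symbol.

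The study knocked down FoxP2, a transcription factor linked to vocal learning, in Area X, the song nucleus of the zebra finch basal ganglia, and sequenced single nuclei with the Chromium 3' v3 chemistry. Adult males carried CS-shFoxP2, an AAV that expresses hairpins against FoxP2 until Cre turns them off, or CS-shScr, the same switch with a scrambled hairpin. There was 1 library per condition, and each pooled 4 hemispheres of 2 birds. The labels give an age of 160 to 185 days post hatch, a range that differs from the one in the methods, and tissue was taken before lights-on. The labels also name the cell type as striatal projection neurons, although the libraries hold all nuclei of the dissected tissue, glia and blood cells included.

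AMPA and kainate receptors are tetramers. In the mammalian brain GluA2, the product of GRIA2, makes AMPA receptors nearly impermeable to calcium once its RNA is edited by ADARB1, and the other AMPA subunits set conductance and kinetics. GluK1 to GluK3, encoded by GRIK1 to GRIK3, form kainate receptors on their own, whereas GluK4 needs a partner among them. In Area X, as in mammalian striatum, medium spiny neurons (MSNs) receive glutamate from the pallium and thalamus, and their spines are the main site of that input.

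The library labelled shFoxP2 held 12956 nuclei and 42662731 unique molecular identifiers (UMIs), and the shScr library 14289 nuclei and 39179294 UMIs, with median depths of 2871 and 2300 UMIs per nucleus. The libraries shared 47 cell barcodes. The level of a gene in a group of nuclei is its share of all their UMIs, given per 10000, with an exact Poisson 95% interval. Log2 ratios have exact binomial intervals, and shares of nuclei exact Clopper-Pearson intervals. These intervals reflect the error of counting and nothing else. Because each condition has a single library, no test was possible between libraries, the birds cannot be told apart from the hairpin, and no p-value is given. Gene length was not corrected, so levels are compared within a gene only. Cell types are the 23 clusters of the authors. The authors clustered on the most variable genes, which may include the members, so differences between clusters are given as a description.

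The targeted transcript went against its label. FOXP2 had 5.85 UMIs per 10000 in MSNs of the library labelled shFoxP2 and 4.75 in MSNs of the shScr library, so every direction between the libraries below rests on the label alone. These counts are of nuclear RNA over exons and introns. The study measured its knockdown as protein, which such counts do not show. FOXP1, a striatal marker, had 42.9 UMIs per 10000 in MSNs and 10.1 in other neurons of the library labelled shFoxP2, and 43.0 in MSNs and 12.2 in other neurons of the shScr library. PPP1R1B, a marker of MSNs in mammals, did not separate MSNs from red blood cells, with 2.29 in MSNs and 5.02 in red blood cells of the library labelled shFoxP2 and 2.14 and 4.20 in the shScr library. Red blood cells, whose hemoglobin transcript HBAA reached 451 and 522 UMIs per 10000 in those libraries, should lack neuronal receptors. Their levels are given below as a sign of free RNA. They are not a floor for deeper nuclei, since other clusters lay far below them. For GRIA1, interneuron cluster 17 had 1.99 UMIs per 10000 and red blood cells 16.4 in the library labelled shFoxP2, and 1.76 and 14.1 in the shScr library. Red blood cells were shallow (median depths 630 and 659 UMIs), and free RNA in deeper nuclei was not measured. Possible doublets, the 8% of nuclei with the highest doublet score in each library, were kept. They made up 21.5% of MSN cluster 5 in the library labelled shFoxP2 and 26.1% in the shScr library, 28.3% and 21.8% of astrocyte cluster 7, and 55.8% and 50.0% of interneuron cluster 21.

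Each subunit had its own distribution over the 23 clusters, and that distribution was much the same in both libraries. Pearson's r between the libraries over the 23 clusters, on log2 levels, was 0.85 for GRIK4 and from 0.94 to 1.00 for the other 7 genes. The clusters of both libraries were drawn together, so they are not independent. The plot of levels by cluster shows GRIA1 highest in MSNs, GRIA4 highest in interneurons and GLUT+ neurons (the cells with the vesicular glutamate transporter SLC17A6), GRIK1 highest in astrocytes and GRIK3 highest in pallidal-like neurons.

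**Figure D1:**
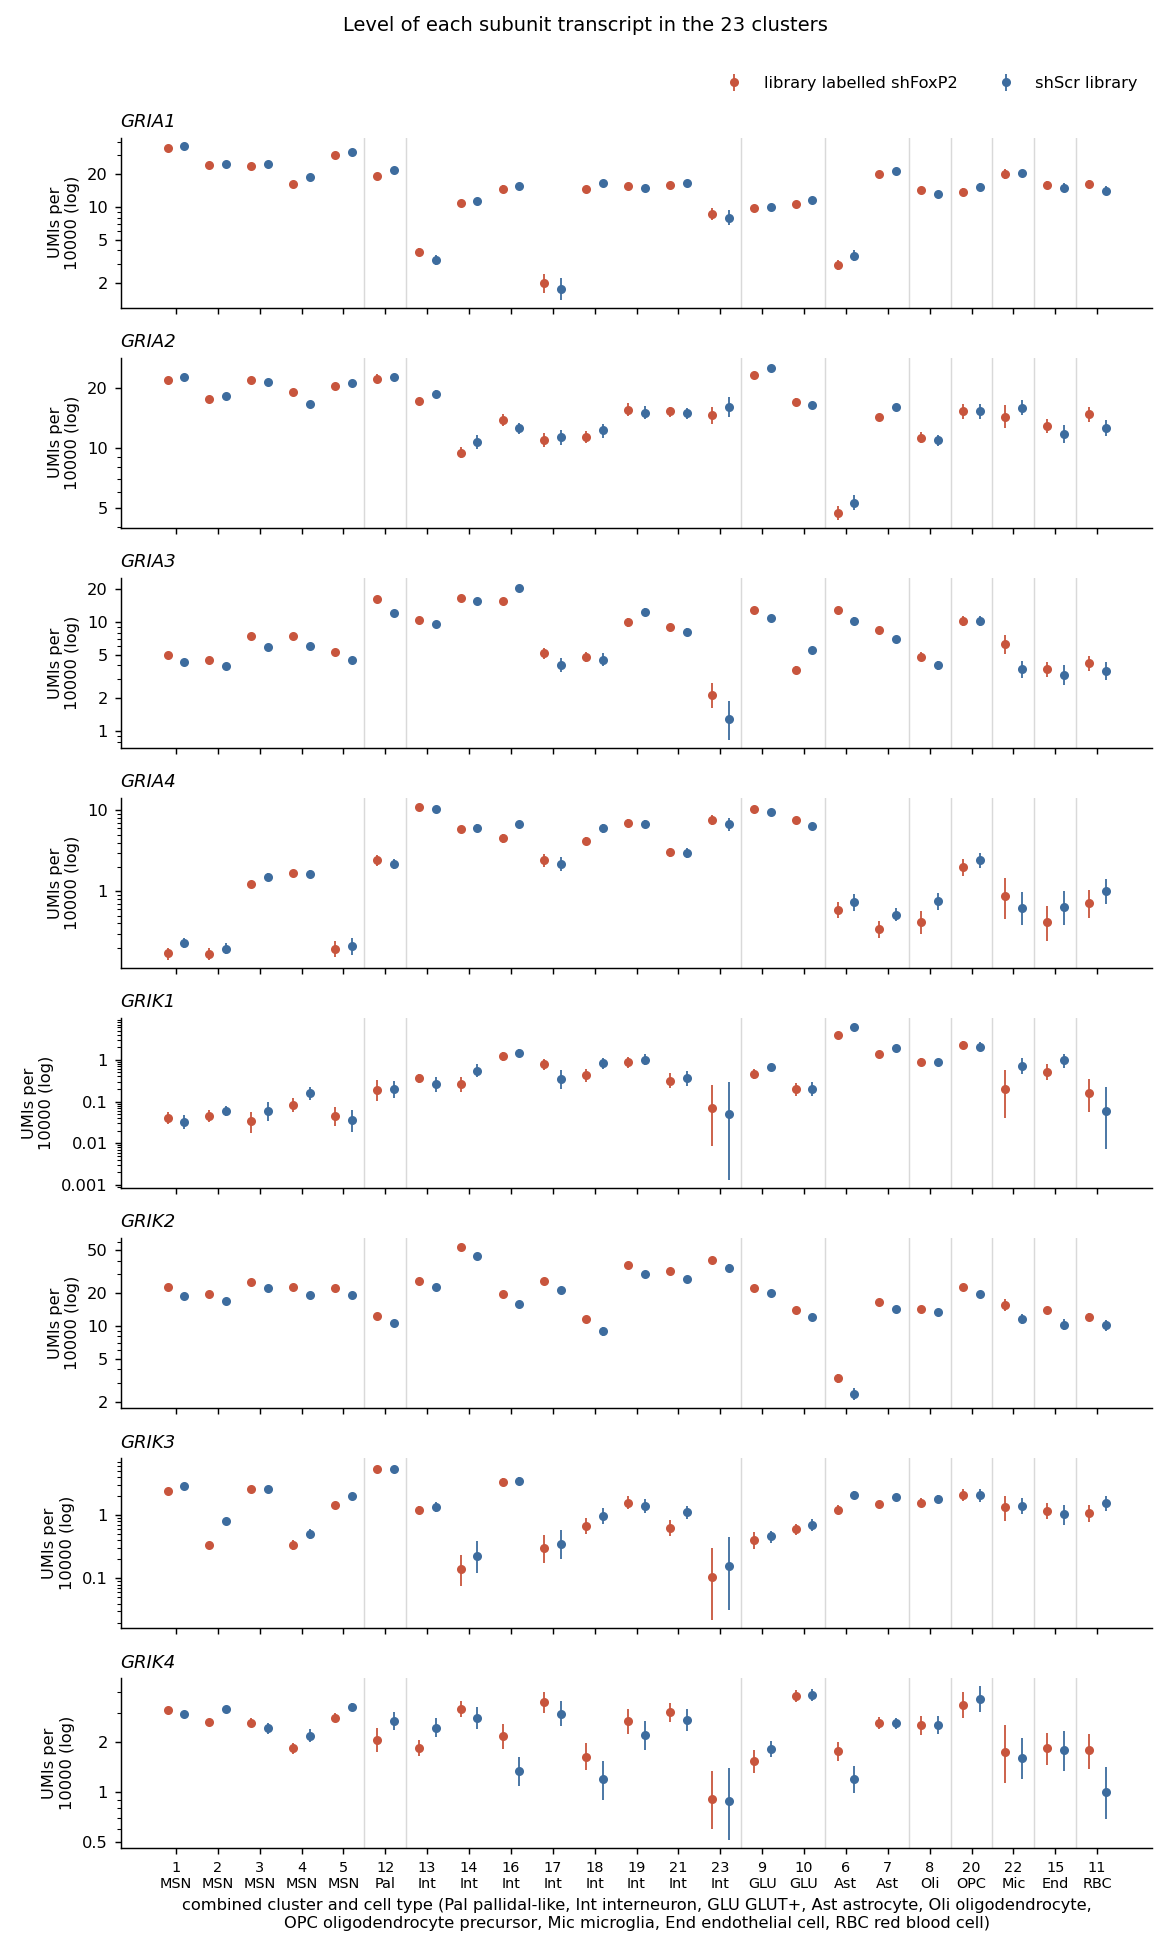
Level of each subunit transcript, in UMIs per 10000 on a log axis, in each of the 23 clusters, with the library labelled shFoxP2 left of the shScr library. Points are levels of summed nuclei and bars their exact Poisson 95% intervals. GRIA1 peaks in MSN cluster 1 (34.8 and 36.4), GRIK1 in astrocyte cluster 6 (3.85 and 6.0) and GRIK3 in pallidal-like cluster 12 (5.35 and 5.51).

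GRIA1, which encodes the subunit that is delivered to synapses during potentiation in mammals, was higher in MSNs than in the other neurons. Its level in MSNs was 27.4 UMIs per 10000 in the library labelled shFoxP2 and 29.2 in the shScr library. The pallidal-like, interneuron and GLUT+ nuclei together, here called other neurons, had 10.8 in the library labelled shFoxP2 and 12 in the shScr library. The log2 ratio of MSNs to other neurons was thus 1.35 (1.32 to 1.38) in the library labelled shFoxP2 and 1.28 (1.25 to 1.31) in the shScr library. MSN cluster 1 was the highest of all, with 34.8 UMIs per 10000 in the library labelled shFoxP2 and 36.4 in the shScr library, followed by clusters 5, 2 and 3 in both libraries. Clusters 2 and 3 did not differ beyond counting error (24.5 and 24.1 in the library labelled shFoxP2, 24.7 and 24.7 in the shScr library). MSN cluster 4 was lower than the other MSNs, at 16.4 in the library labelled shFoxP2 and 18.9 in the shScr library. Pallidal-like cluster 12 lay above MSN cluster 4 beyond counting error, at 19.3 in the library labelled shFoxP2 and 21.9 in the shScr library.

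The lowest GRIA1 levels lay in a few interneurons and in astrocyte cluster 6. Astrocyte cluster 7 had 20.2 UMIs per 10000 in the library labelled shFoxP2 and 21.4 in the shScr library. Interneuron cluster 17, which had LHX6, had 1.99 UMIs per 10000 (1.63 to 2.41) in the library labelled shFoxP2 and 1.76 (1.40 to 2.20) in the shScr library. Interneuron cluster 13 had 3.85 in the library labelled shFoxP2 and 3.26 in the shScr library, and astrocyte cluster 6 had 2.94 and 3.58. The highest cluster exceeded the lowest 17.5-fold in the library labelled shFoxP2 and 20.7-fold in the shScr library. Whether free RNA adds to the middle of this order was not tested. Red blood cells had 16.4 UMIs per 10000 in the library labelled shFoxP2 and 14.1 in the shScr library, and microglia 20.2 and 20.4, so the level of MSN cluster 4 was no higher than that of microglia in either library.

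GRIA2 varied least among the AMPA subunits. MSNs had 20.1 UMIs per 10000 and other neurons 16.1 in the library labelled shFoxP2, and 20.5 and 17.9 in the shScr library. GLUT+ cluster 9 was the highest, with 23.3 in the library labelled shFoxP2 and 25.3 in the shScr library. In the library labelled shFoxP2 its interval overlapped that of pallidal-like cluster 12 (22.4), whereas in the shScr library it lay above all other clusters. Astrocyte cluster 6 was the lowest in both, at 4.73 in the library labelled shFoxP2 and 5.33 in the shScr library, which left a range of 4.92-fold and 4.74-fold over the clusters. Red blood cells had 14.8 in the library labelled shFoxP2 and 12.7 in the shScr library, near the middle of that range.

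GRIA3 was lower in MSNs than in the other neurons. MSNs had 5.52 UMIs per 10000 and other neurons 9.77 in the library labelled shFoxP2, a log2 ratio of -0.82 (-0.86 to -0.79). The shScr library had 4.51 in MSNs and 10.1 in other neurons, a log2 ratio of -1.16 (-1.20 to -1.12). Interneuron clusters 14 and 16 were high in both libraries, cluster 14 with 16.5 in the library labelled shFoxP2 and 15.4 in the shScr library, and cluster 16, the cluster with NPY, SST and NOS1, with 15.4 and 20.3. Pallidal-like neurons had 16.1 in the library labelled shFoxP2 and 12 in the shScr library. Astrocyte cluster 6, which was low in GRIA1 and GRIA2, had 12.9 in the library labelled shFoxP2 and 10.3 in the shScr library, against 4.18 and 3.59 in red blood cells. The CHAT-rich cluster 23, the cholinergic interneurons, was the lowest, with 2.14 in the library labelled shFoxP2 and 1.29 in the shScr library.

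GRIA4, which encodes the AMPA subunit typical of fast-spiking interneurons in mammals, had the widest contrast between MSNs and other neurons of the AMPA subunits. MSNs had 0.505 UMIs per 10000 and other neurons 6.78 in the library labelled shFoxP2, and 0.467 and 6.58 in the shScr library. The log2 ratio was -3.75 (-3.83 to -3.66) in the library labelled shFoxP2 and -3.82 (-3.91 to -3.73) in the shScr library. Interneuron cluster 13 was at the top with 10.9 in the library labelled shFoxP2 and 10.3 in the shScr library, and its interval overlapped that of GLUT+ cluster 9 (10.4 and 9.48).

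The MSN clusters did not share 1 level of GRIA4. Clusters 1, 2 and 5 had 0.17, 0.168 and 0.195 UMIs per 10000 in the library labelled shFoxP2 and 0.229, 0.195 and 0.209 in the shScr library, below the 0.706 and 1.00 of red blood cells. Clusters 3 and 4 had 1.22 and 1.70 in the library labelled shFoxP2 and 1.52 and 1.62 in the shScr library. After thinning each nucleus to 1000 UMIs, 16.5% of cluster 4 nuclei had a GRIA4 UMI in the library labelled shFoxP2 and 15.4% in the shScr library, against 1.83% and 1.81% of cluster 2. The unthinned shares were 33.4% and 30.5% in cluster 4, and 4.49% and 4.36% in cluster 2. Of red blood cells 2.94% had one in the library labelled shFoxP2 and 9.76% in the shScr library, from only 68 and 82 nuclei deep enough (median depths 630 and 659 UMIs before thinning). Clusters 2 and 4 had median depths of 2750 and 2817 UMIs in the library labelled shFoxP2 and 2137.5 and 2388.5 in the shScr library. Cluster 4 lay above red blood cells beyond counting error in the library labelled shFoxP2 (14.3 to 18.8 against 0.358 to 10.2), whereas in the shScr library the intervals overlapped (12.9 to 18.2 against 4.31 to 18.3). The shares of cluster 2 were at or below those of red blood cells, and the part of free RNA in them was not tested.

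Among the kainate subunits, GRIK2 differed between MSNs and the other neurons by less than the fold of 0.5 (log2) used below. MSNs had 22.2 UMIs per 10000 and other neurons 25.4 in the library labelled shFoxP2, and 18.8 and 20.3 in the shScr library. The spread lay within the interneurons. Cluster 14 had 53.2 in the library labelled shFoxP2 and 44.6 in the shScr library, the CHAT-rich cluster 23 had 40.7 and 34.4, and the PENK-rich cluster 19 had 36.4 and 29.9. These clusters and cluster 21 kept the same order in both libraries, with intervals that did not overlap. Astrocyte cluster 6 was the lowest, at 3.29 in the library labelled shFoxP2 and 2.37 in the shScr library, against 12.1 and 10.1 in red blood cells. Pallidal-like neurons (12.4 in the library labelled shFoxP2 and 10.7 in the shScr library) and interneuron cluster 18 (11.6 and 8.92) did not differ from red blood cells beyond counting error.

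GRIK1 was highest in glia. Astrocyte cluster 6 had 3.85 UMIs per 10000 (3.52 to 4.21) in the library labelled shFoxP2 and 6.0 (5.51 to 6.52) in the shScr library. Oligodendrocyte precursors came next, with 2.26 in the library labelled shFoxP2 and 2.08 in the shScr library, then astrocyte cluster 7 with 1.39 and 1.89. After thinning, 33.0% (29.4 to 36.7) of cluster 6 nuclei had a GRIK1 UMI in the library labelled shFoxP2 and 45.2% (40.8 to 49.6) in the shScr library (47.3% and 59.9% unthinned, at median depths of 1703 and 1550 UMIs). Red blood cells had 0 of 68 in the library labelled shFoxP2, which allows up to 5.28%, and 1.22% in the shScr library. MSNs had 0.0472 UMIs per 10000 in the library labelled shFoxP2 and 0.0558 in the shScr library, a level that did not differ beyond counting error from the 0.0608 of shScr red blood cells and lay below the 0.157 (0.0576 to 0.341) of those in the library labelled shFoxP2. Among neurons the NPY-rich cluster 16 had the most, 1.22 in the library labelled shFoxP2 and 1.5 in the shScr library.

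GRIK3 marked the pallidal-like neurons and separated the MSNs into groups. Pallidal-like neurons had 5.35 UMIs per 10000 (4.81 to 5.93) in the library labelled shFoxP2 and 5.51 (5.03 to 6.02) in the shScr library, above every other cluster, and the NPY-rich interneuron cluster 16 followed with 3.35 and 3.51. After thinning, 39.4% (33.4 to 45.8) of pallidal-like nuclei had a GRIK3 UMI in the library labelled shFoxP2 and 40.9% (35.8 to 46.2) in the shScr library (59.2% and 62.0% unthinned). The share in red blood cells was 14.7% and 17.1%. Interneuron clusters 14 and 23 were at the bottom, with 0.141 and 0.105 UMIs per 10000 in the library labelled shFoxP2 and 0.225 and 0.155 in the shScr library.

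GRIK4 had the flattest distribution. Its highest level, in GLUT+ cluster 10, was 3.79 UMIs per 10000 in the library labelled shFoxP2 and 3.84 in the shScr library, and its lowest, in the CHAT-rich cluster 23, was 0.910 and 0.878. In each library all 22 pairs of neighbours in the order of clusters had overlapping intervals. MSNs had 2.71 in the library labelled shFoxP2 and 2.94 in the shScr library, against 1.78 and 1.00 in red blood cells.

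Of the 8 members, 1 was higher in MSNs than in other neurons by a log2 ratio of at least 0.5 in both libraries, where 8.67% of the 9341 genes with enough UMIs did so. It was GRIA1. Another 3 (GRIA3, GRIA4 and GRIK1) were lower by that fold in both libraries, where 20.0% of genes were. For GRIK1 the log2 ratio was -3.16 (-3.46 to -2.87) in the library labelled shFoxP2 and -3.27 (-3.55 to -2.99) in the shScr library. The 4 others, GRIA2, GRIK2, GRIK3 and GRIK4, had log2 ratios between -0.19 and 0.32 in the 2 libraries. The median of the members was -0.04 in the library labelled shFoxP2 and 0.04 in the shScr library, beside -0.12 and -0.16 over all genes.

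**Figure D2:**
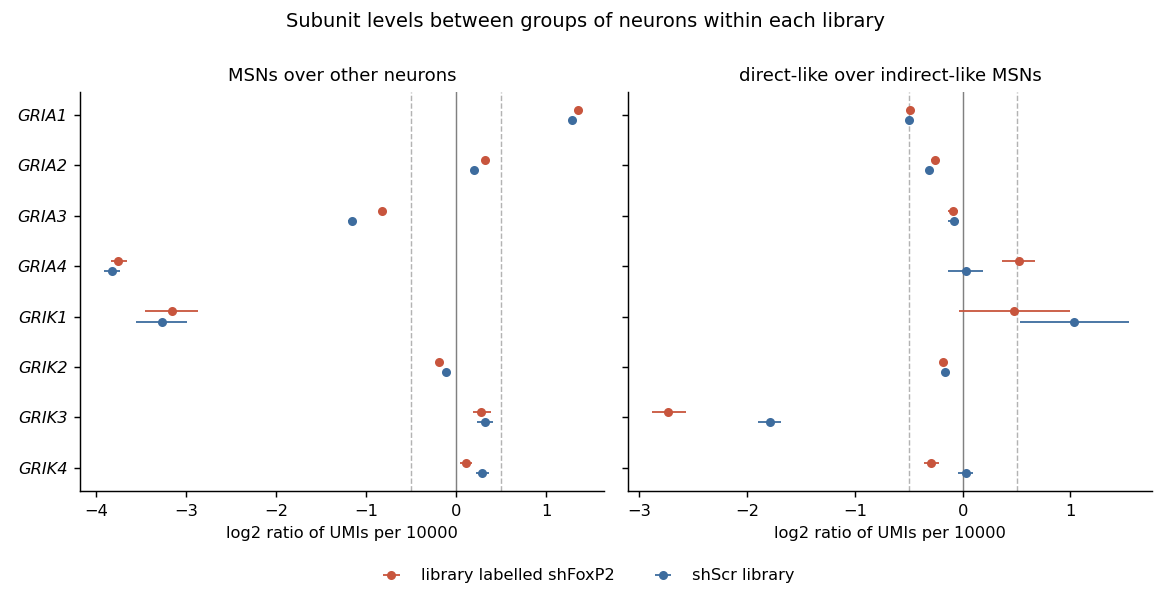
Log2 ratio of the level of each subunit between MSNs and other neurons (left panel) and between direct-like and indirect-like MSNs (right panel), within each library. Points are ratios of summed UMIs, bars exact binomial 95% intervals, and dashed lines the fold of 0.5. GRIA1 lies at 1.35 and 1.28 and GRIA4 at -3.75 and -3.82 in the left panel, and GRIK3 at -2.73 and -1.79 in the right panel.

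The make-up of the AMPA subunit UMIs showed the same split from another side. These shares were not corrected for gene length, so a share is compared between clusters and not between genes. GRIA1 made up 56.2% of AMPA subunit UMIs in MSN cluster 1 of the library labelled shFoxP2 and 57.1% in the shScr library, against 9.07% and 7.77% in interneuron cluster 13. The share of GRIA2 was lowest among interneurons in cluster 14, at 22.2% (20.9 to 23.5), in the library labelled shFoxP2 and in cluster 16, at 22.8% (21.5 to 24.1), in the shScr library. It was highest in cluster 17 in both, at 53.5% (50.5 to 56.5) and 58.7% (55.4 to 62.0). All 5 MSN clusters fell between these, with GRIA2 at 35.4% to 42.8% in the library labelled shFoxP2 and 35.9% to 40.2% in the shScr library.

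GRIA4 made up 25.7% of AMPA subunit UMIs in cluster 13 of the library labelled shFoxP2 and 24.5% in the shScr library, against 0.275% and 0.358% in MSN cluster 1. GRIA3 had its largest share in astrocyte cluster 6, 61.0% in the library labelled shFoxP2 and 51.6% in the shScr library. In oligodendrocytes, and in cell types that should lack these receptors, the share of GRIA1 was near that of the whole library. It was 45.4% of AMPA subunit UMIs in red blood cells, 48.4% in microglia, 48.5% in endothelial cells and 46.6% in oligodendrocytes of the library labelled shFoxP2, beside 45.1% over all its nuclei. The share of GRIA4 was lower than over all nuclei (3.87%) in these types of the library labelled shFoxP2, from 1.24% in endothelial cells to 2.07% in microglia. In the shScr library it was also lower in microglia, endothelial cells and oligodendrocytes. In red blood cells of the shScr library, from 33 GRIA4 UMIs, it did not differ from the share over all nuclei beyond counting error.

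**Figure D3:**
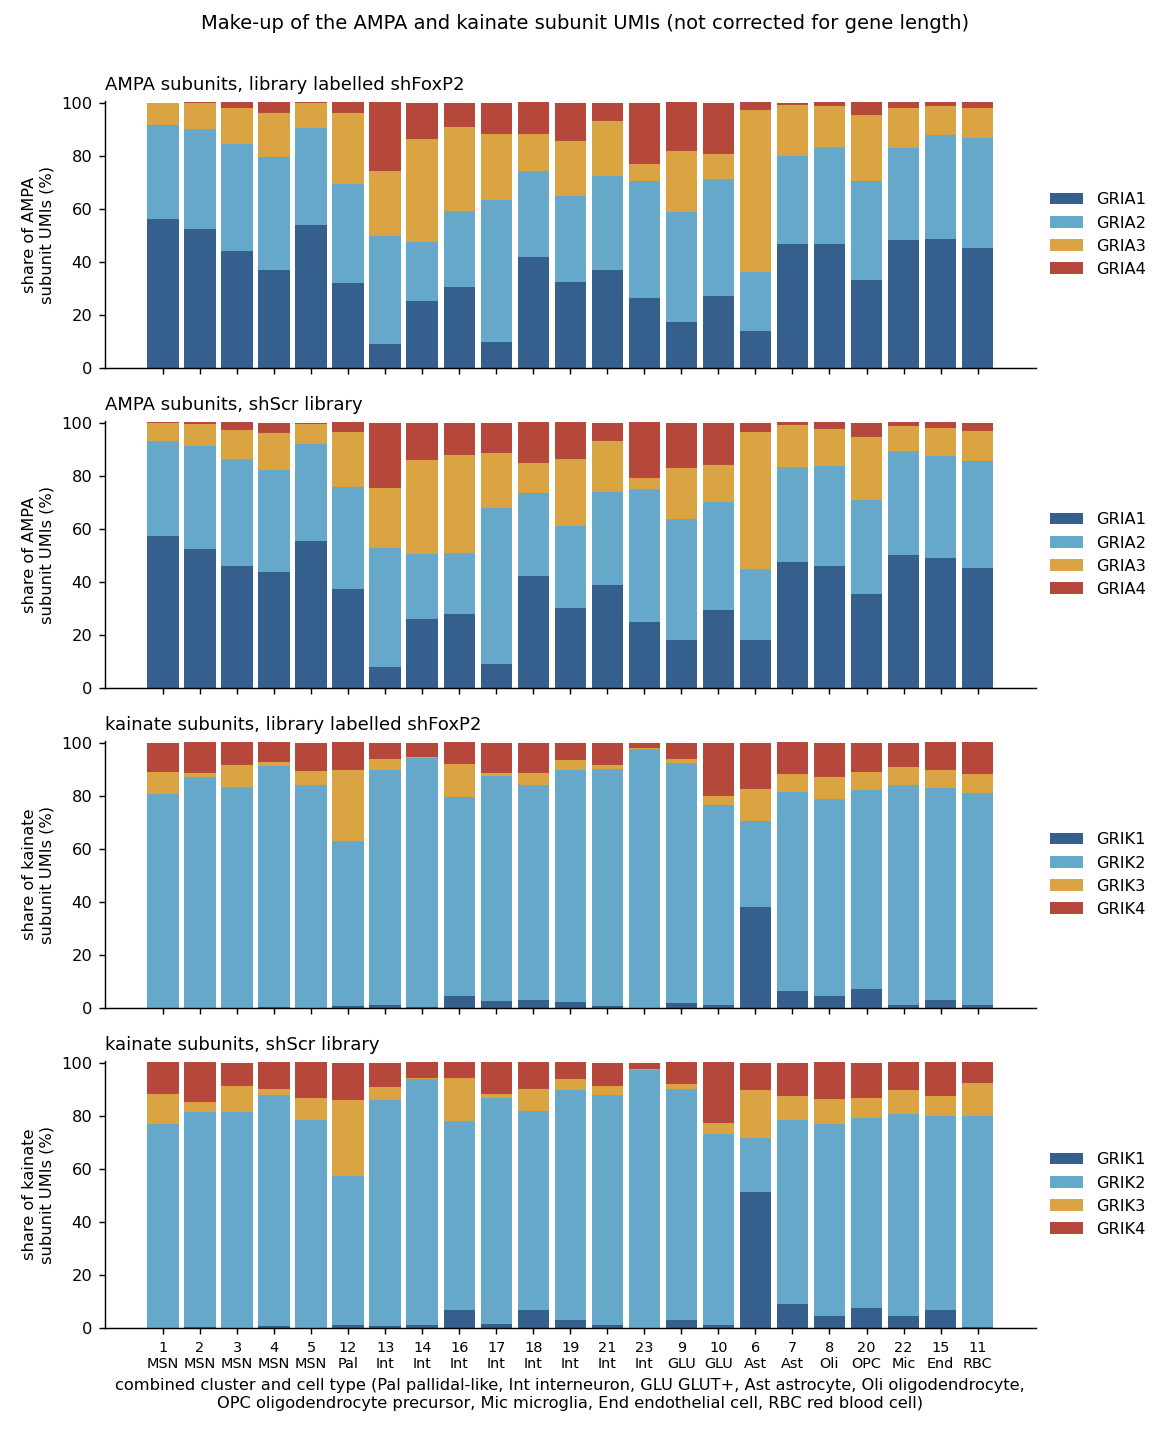
Share of each AMPA subunit (upper pair of panels) and kainate subunit (lower pair) in the UMIs of its family, in percent, for the 23 clusters, with the library labelled shFoxP2 above the shScr library. Bars are shares of summed UMIs, not corrected for gene length. GRIA4 reaches 25.7% and 24.5% in cluster 13, GRIA3 61.0% and 51.6% and GRIK1 38.0% and 51.4% in astrocyte cluster 6.

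The share of GRIK2 in kainate subunit UMIs was 84.1% in MSNs of the library labelled shFoxP2 and 79.5% in the shScr library. It was largest in the CHAT-rich cluster 23, at 97.4% and 96.9%. GRIK3 had its largest share in pallidal-like neurons, 26.8% in the library labelled shFoxP2 and 28.8% in the shScr library. GRIK1 had its largest in astrocyte cluster 6, 38.0% and 51.4%, and GRIK4 in GLUT+ cluster 10, 20.2% and 22.7%.

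MSN clusters 2 and 4 were taken as direct-like and clusters 1, 3 and 5 as indirect-like, by a DRD2 level under 0.25 of the highest among the 5. DRD2, the dopamine receptor of the mammalian indirect pathway, had 0.183 and 0.210 UMIs per 10000 in clusters 2 and 4 over both libraries, and 3.89, 3.22 and 2.21 in clusters 1, 3 and 5. Of the 7 members with at least 200 UMIs in this contrast in each library, 1 was lower in direct-like MSNs by the fold in both libraries, where 1.56% of 8255 genes were, and 0 were higher, where 1.61% of genes were. The lower one was GRIK3. Direct-like MSNs had 0.337 UMIs per 10000 and indirect-like MSNs 2.23 in the library labelled shFoxP2, a log2 ratio of -2.73 (-2.88 to -2.57). In the shScr library direct-like MSNs had 0.758 and indirect-like MSNs 2.63, a log2 ratio of -1.79 (-1.90 to -1.68).

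The GRIK3 difference held cluster by cluster. Direct-like clusters 2 and 4 had 0.336 and 0.339 UMIs per 10000 in the library labelled shFoxP2 and 0.819 and 0.507 in the shScr library. Indirect-like clusters 1, 3 and 5 had 2.42, 2.58 and 1.44 in the library labelled shFoxP2 and 2.87, 2.60 and 2.01 in the shScr library. The groups did not overlap in either library, and cluster 5, the MSN cluster with the most possible doublets, was the lowest of the indirect-like clusters. Without cluster 5 the log2 ratio was -2.87 in the library labelled shFoxP2 and -1.89 in the shScr library. After thinning, 3.31% (2.76 to 3.93) of direct-like and 21.3% (20.2 to 22.6) of indirect-like MSNs had a GRIK3 UMI in the library labelled shFoxP2, and 7.43% (6.68 to 8.24) and 22.7% (21.5 to 23.8) in the shScr library. The unthinned shares were 9.19% and 50.3% in the library labelled shFoxP2, and 15.8% and 49.6% in the shScr library, at median depths from 2166.5 to 2951.5 UMIs. The direct-like shares lay under those of red blood cells, and the indirect-like shares did not differ from them beyond counting error. By level, red blood cells had 1.10 UMIs per 10000 in the library labelled shFoxP2 and 1.55 in the shScr library. Clusters 1 and 3 lay above these levels, whereas cluster 5 did not differ from them beyond counting error. The part of free RNA in these values was not tested.

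GRIA1 lay at the edge of the fold in this contrast. Direct-like MSNs had 22.1 UMIs per 10000 and indirect-like MSNs 31.2 in the library labelled shFoxP2, and 23.6 and 33.3 in the shScr library. The log2 ratio was -0.49 (-0.52 to -0.47) in the library labelled shFoxP2 and -0.50 (-0.52 to -0.48) in the shScr library. GRIA2 was lower by less (-0.26 in the library labelled shFoxP2 and -0.31 in the shScr library), as was GRIK2 (-0.18 and -0.16). GRIA4 had 0.52 (0.37 to 0.67) in the library labelled shFoxP2 and 0.03 (-0.14 to 0.19) in the shScr library. Cluster 4 gave 567 of the 704 direct-like UMIs of GRIA4 in the library labelled shFoxP2 and 333 of 499 in the shScr library. The median of the 7 members was -0.26 in the library labelled shFoxP2 and -0.16 in the shScr library, beside 0.02 and 0.03 over all genes.

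Between the libraries, no subunit passed the fold of 0.5 in MSNs as a whole. Of the 8 members, 0 had a log2 ratio (library labelled shFoxP2 over shScr) of at least 0.5 in either direction. Of 10125 genes, 18.2% had one. With only 8 members, the count of 0 is not read as a departure from that share. The interval of the ratio lay above 0 for 2 members, below 0 for 4 and held 0 for 2. GRIK3 did pass the fold in direct-like MSNs, as given below. The ratio was 0.29 for GRIA3 and 0.25 for GRIK2, and -0.36 (-0.42 to -0.29) for GRIK3. It was -0.09 for GRIA1, -0.03 for GRIA2, 0.11 for GRIA4, -0.24 (-0.60 to 0.11) for GRIK1 and -0.11 for GRIK4. The median of the members was -0.06, beside 0.01 over all genes, whose SD was 0.51. After thinning, a GRIA3 UMI was present in 40.7% (39.7 to 41.8) of MSNs in the library labelled shFoxP2 and in 34.9% (33.9 to 35.8) in the shScr library, and a GRIK2 UMI in 86.3% and 82.1%. The unthinned shares were 75.5% and 62.6% for GRIA3 and 99.0% and 96.9% for GRIK2. Red blood cells had a GRIA3 UMI in 42.6% and 31.7% of their 68 and 82 thinned nuclei, and a GRIK2 UMI in 73.5% and 64.6%. The share for GRIA3 in MSNs of the library labelled shFoxP2 was thus near that of red blood cells, and no difference is read from it.

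The higher GRIK2 level was not particular to a cell type. Its ratio was above 0 in 23 of 23 clusters, from 0.09 in oligodendrocyte cluster 8 to 0.48 in astrocyte cluster 6, and was 0.25 in red blood cells. The clusters share the same pair of libraries, so they do not repeat the comparison. GRIA3 was above 0 in 19 of the 22 clusters with at least 200 UMIs, the highest being microglia cluster 22 (0.75, 0.34 to 1.15). The lowest was GLUT+ cluster 10, where the level was 3.65 UMIs per 10000 in the library labelled shFoxP2 and 5.54 in the shScr library (log2 ratio -0.60, -0.76 to -0.45). GRIK3 was below 0 in 11 of 11 clusters with at least 200 UMIs, with 6 intervals that excluded 0. GRIA1 was above 0 in 6 of 22 and GRIA2 in 10 of 23.

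**Figure D4:**
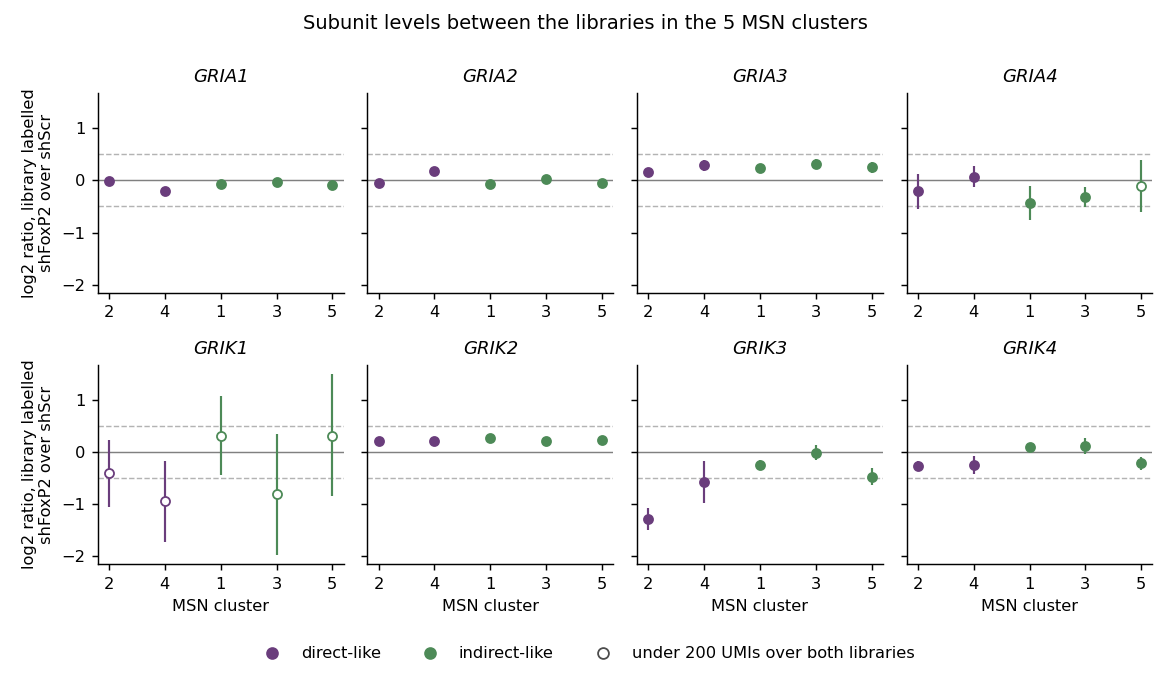
Log2 ratio of each subunit (library labelled shFoxP2 over shScr) in the 5 MSN clusters, with the direct-like clusters 2 and 4 left of the indirect-like clusters 1, 3 and 5. Points are ratios of summed UMIs, bars exact binomial 95% intervals, dashed lines the fold of 0.5, and open points rest on fewer than 200 UMIs. GRIK3 lies at -1.28 in cluster 2 and -0.58 in cluster 4, and GRIK2 between 0.21 and 0.26 in all 5.

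In direct-like MSNs 1 of 7 members passed the fold between libraries, where 15.9% of 8238 genes did, and in indirect-like MSNs 0 of 7, where 17.7% of 8974 genes did. The 1 was GRIK3, with 387 UMIs in the library labelled shFoxP2 and 802 in the shScr library, or 0.337 and 0.758 UMIs per 10000 (log2 ratio -1.17, -1.35 to -0.99). In indirect-like MSNs the GRIK3 ratio was -0.24, so the direct-like ratio was lower by a log2 difference of -0.93 (-1.12 to -0.75). By cluster it was -1.28 (-1.49 to -1.08) in cluster 2 and -0.58 (-0.98 to -0.18) in cluster 4, against -0.24, -0.01 and -0.48 in clusters 1, 3 and 5. Red blood cells had 1.10 UMIs per 10000 (0.791 to 1.48) in the library labelled shFoxP2 and 1.55 (1.16 to 2.04) in the shScr library. These are above both direct-like levels. Their ratio was -0.50 (-1.12 to 0.12), from 42 and 51 UMIs, so they did not differ between the libraries beyond counting error. The part of free RNA in the GRIK3 difference of direct-like MSNs was not tested.

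The shares of the MSN clusters also differed between the libraries. Cluster 4 made up 28.3% of direct-like nuclei in the library labelled shFoxP2 and 17.3% in the shScr library. GRIA4, which is high in cluster 4, had a log2 ratio of 0.38 between the libraries in direct-like MSNs, with 0.613 UMIs per 10000 in the library labelled shFoxP2 and 0.472 in the shScr library. Within cluster 2 the ratio was -0.21 (-0.55 to 0.12) and within cluster 4 it was 0.07 (-0.13 to 0.27). With the clusters at the same weights in both libraries it was 0.00, while that of GRIK3 was -1.14. For GRIK4 the ratio in direct-like MSNs was -0.31, and -0.26 at the same weights, with -0.26 in cluster 2 and -0.25 in cluster 4.

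In the other cell types few members passed the fold between libraries. None of the 7 with enough UMIs did so in pallidal-like neurons (0 of 7, where 6.91% of genes did), the largest being GRIA3 at 0.42 (0.29 to 0.54). In interneurons 0 of 8 did, where 10.1% of genes did. Within interneurons the NPY-rich cluster 16 had ratios past the fold, -0.60 (-0.82 to -0.38) for GRIA4 and 0.71 (0.32 to 1.10) for GRIK4, from 133 GRIK4 UMIs in the library labelled shFoxP2 and 95 in the shScr library. Over all genes of that cluster, 5% of the ratios lay below -0.49 and 5% above 0.48. Its GRIK4 levels were 2.17 UMIs per 10000 in the library labelled shFoxP2 and 1.33 in the shScr library. Red blood cells had 1.78 and 1.00, a difference in the same direction, and the part of free RNA was not tested. Cluster 18 was past the fold for GRIA4 (-0.51, -0.75 to -0.27), where 5% of all ratios lay below -0.44 and 5% above 0.46. In GLUT+ neurons 1 of 8 members passed the fold, where 11.2% of genes did. It was GRIK1 (-0.62), whose level of 0.306 UMIs per 10000 in the library labelled shFoxP2 and 0.470 in the shScr library rested on 83 and 149 UMIs. Red blood cells had 0.157 (0.0576 to 0.341) in the library labelled shFoxP2 and 0.0608 in the shScr library. The GLUT+ clusters had unequal weights, cluster 9 holding 247 of 621 GLUT+ nuclei in the library labelled shFoxP2 and 477 of 810 in the shScr library. Within them the GRIK1 ratio was -0.48 (-0.99 to 0.00) in cluster 9 and -0.03 (-0.81 to 0.76) in cluster 10, each from fewer than 200 UMIs and neither past the fold. In microglia 4 members had enough UMIs, and the share of all genes past the fold was not counted there, so no count of members is read. The GRIA3 ratio was 0.75 (0.34 to 1.15), from 94 UMIs in the library labelled shFoxP2 and 118 in the shScr library. Over all genes of microglia, 5% of the ratios lay below -0.63 and 5% above 0.62.

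In astrocytes 1 of 8 members passed the fold, where 10.5% of genes did. It was GRIK3 (-0.51), with 1.39 UMIs per 10000 in the library labelled shFoxP2 and 1.99 in the shScr library. In astrocyte cluster 7 alone the GRIK3 ratio was -0.38 (-0.59 to -0.17), not past the fold. GRIK1 had 2.28 in the library labelled shFoxP2 and 3.10 in the shScr library (-0.44). Cluster 6 had less of the striatal marker FOXP1 (3.95 in the library labelled shFoxP2 and 4.16 in the shScr library) than astrocyte cluster 7 (31.3 and 31.8). In cluster 6 the GRIK1 ratio was -0.64 (-0.82 to -0.46), from 484 UMIs in the library labelled shFoxP2 and 552 in the shScr library. GRIK4 had 0.56 (0.23 to 0.91) in the same cluster and GRIK3 -0.78 (-1.10 to -0.47). Over all genes of cluster 6, 5% of the ratios lay below -0.50 and 5% above 0.49. Its GRIK4 levels were 1.77 UMIs per 10000 in the library labelled shFoxP2 and 1.19 in the shScr library, beside 1.78 and 1.00 in red blood cells. The GRIK3 levels in cluster 6 were 1.22 in the library labelled shFoxP2 and 2.10 in the shScr library. Red blood cells had 1.10 and 1.55 for GRIK3, with a ratio of -0.50 (-1.12 to 0.12). The part of free RNA in these ratios was not tested.

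Proteins that bind these receptors were described from a list of 32 genes, of which 29 have a column. In MSNs 26 had at least 200 UMIs over both libraries, and 6 of them passed the fold between libraries (3 higher and 3 lower), where 18.2% of all genes did. NPTX1, a secreted pentraxin that clusters AMPA receptors, had 0.217 UMIs per 10000 in the library labelled shFoxP2 and 0.541 in the shScr library (log2 ratio -1.32, -1.46 to -1.18). In red blood cells it had 0.523 and 1.25, above the MSN levels and with a ratio of -1.25. NETO2, an auxiliary subunit of kainate receptors, had 1.58 in the library labelled shFoxP2 and 2.52 in the shScr library (-0.67, -0.72 to -0.61), and in red blood cells 1.52 and 2.25. Its paralog NETO1 had 6.12 in the library labelled shFoxP2 and 6.30 in the shScr library (-0.04). CACNG5, a member of the TARP family that escorts AMPA receptors, had 0.209 and 0.324 (-0.63), beside 0.261 and 0.274 in red blood cells.

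Among the higher genes were PICK1 and GSG1L. PICK1, which binds GluA2 during its internalisation, had 0.14 UMIs per 10000 in the library labelled shFoxP2 and 0.0840 in the shScr library (0.74), and in red blood cells 0.261 and 0.213. GSG1L, an auxiliary subunit of AMPA receptors, had 0.405 and 0.280 (0.53), and in red blood cells 0.183 and 0.213. The part of free RNA in these ratios was not tested. The median over the 26 genes was -0.01.

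Between groups of MSNs, 3 of 25 genes of this list were higher in direct-like MSNs by the fold in both libraries, where 1.61% of all genes were. Another 1, not reported here, was lower by the fold in both, where 1.56% of all genes were. SHISA6, which slows the desensitisation of AMPA receptors, had 0.419 UMIs per 10000 in direct-like and 0.134 in indirect-like MSNs of the library labelled shFoxP2 (log2 ratio 1.65), and 0.334 and 0.0811 in the shScr library (2.04). Its relative SHISA9 had 2.21 and 1.23 in the library labelled shFoxP2 (0.84) and 1.53 and 0.970 in the shScr library (0.66). CACNG5 was the other higher gene, with ratios of 0.94 and 0.53. In red blood cells SHISA6 had 0.235 UMIs per 10000 in the library labelled shFoxP2 and 0.243 in the shScr library, from 9 and 8 UMIs. The part of free RNA in these values was not tested.

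Between MSNs and other neurons, 2 of 25 genes were higher in MSNs by the fold in both libraries and 10 were lower, where 8.67% and 20.0% of all genes were. The higher ones were SYNDIG1, an organiser of excitatory synapses (log2 ratios of 0.87 in the library labelled shFoxP2 and 0.71 in the shScr library), and CACNG5 (0.52 and 1.14). The lower ones were CACNG2, CACNG4, SHISA6, SHISA9, NPTX1, GRIP1, GRIP2, DLG1, ADARB2 and GRID1. GRIP1 and GRIP2 encode scaffolds that bind the tail of GluA2 and GluA3. GRIP1 had 0.426 UMIs per 10000 in MSNs and 14.3 in other neurons of the library labelled shFoxP2, a log2 ratio of -5.07, and 0.438 and 12.2 in the shScr library (-4.80). GRIP2 had 0.493 and 7.88 in the library labelled shFoxP2 (-4.00) and 0.444 and 6.10 in the shScr library (-3.78). ADARB1, the enzyme that edits GRIA2, had 1.15 in MSNs of the library labelled shFoxP2 and 1.55 in the shScr library.

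The genes whose levels most resembled those of each member over the 23 clusters were found by Pearson's r on log2(UMIs per 10000 + 0.1), ranking 7290 genes with at least 1000 UMIs by the lower r of the libraries. The points share libraries and depth, and no p is given. For GRIA1 they were PHACTR1 (0.86 in the library labelled shFoxP2 and 0.85 in the shScr library) and KIAA1211 (0.86 and 0.84), and for GRIA2 SLC4A10 (0.91 and 0.86) and KCNMA1 (0.84 and 0.81). GRIA3 had CABIN1 (0.68 and 0.71) and ADGRB1 (0.76 and 0.67), and GRIA4 had PPP1R14C (0.89 and 0.89) and FGF1 (0.88 and 0.88). GRIK1 was closest to NPAS3 (0.91 and 0.87) and BMPER (0.87 and 0.85), and GRIK2 to ABCC8 (0.82 and 0.85) and PCNX2 (0.83 and 0.81). GRIK3 was closest to FAT1 (0.70 and 0.72) and NPY (0.70 and 0.74), and GRIK4 to MXD4 (0.70 and 0.62) and TNR (0.61 and 0.63).

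Among themselves the members followed each other weakly. Of the 28 pairs, 17 had an r above 0 in both libraries and 9 an r below 0 in both. GRIA1 with GRIA2 (0.58 in the library labelled shFoxP2 and 0.50 in the shScr library) and GRIA2 with GRIK2 (0.45 and 0.51) were the highest, and GRIA2 with GRIK1 was the lowest (-0.64 and -0.64), over the same 23 clusters. GRIA1 and GRIA4 ran against each other, with an r of -0.45 and -0.43.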

How the data were processed

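Nuclei of Area X from 2 birds per condition gave 1 library each. Reads on exons and introns were counted by the authors with CellRanger 3.0.2 against the zebra finch build bTaeGut1_v1.p, and nuclei above 10000 UMIs or above 5% mitochondrial UMIs were removed. The deposited table holds whole-number UMI counts, not normalized, with the cluster of each of 27245 nuclei (500 to 9997 UMIs each). It names the libraries by codes. The code whose counts equal the deposited table of scrambled nuclei was taken as shScr and the other as shFoxP2. Cell type names follow the study's text.

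UMIs were summed per library and cluster (Python 3.11.15 with pandas 2.3.3, numpy 2.4.6, scipy 1.17.1). A ratio needed 200 UMIs or more in its 2 sums together, and sums of 0 were replaced by 3. Differences of log2 ratios have normal intervals. Thinning drew 1000 UMIs per nucleus and left out 11 MSNs and 305 red blood cells in the library labelled shFoxP2, and 36 and 246 in the shScr library. Scrublet (scanpy 1.11.5) called 0 doublets in the library labelled shFoxP2 and 991 in the shScr library at its own threshold, so the 8% with the highest scores (1036 and 1143 nuclei) were left out as an alternative. Other alternatives were ratios minus the median of all genes, other minimums, folds and thinning depths, only nuclei with at least 1000 UMIs, means over nuclei, MSN clusters weighted alike, cluster 5 left out, and the clusters of the shScr library alone. The ratio step was tested on simulated data.

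All 8 members are named. Partner genes are named where they passed the fold, except 1 that is not reported here, with NETO1 and ADARB1 added after their values were seen, and like genes are the first 2 by r for each member. The members and lists were chosen with earlier results of these data known. Figures were drawn with matplotlib 3.10.9.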

Additional observations from a re-analysis of the deposited data

How the results depend on the processing

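The count of members past the fold between libraries in MSNs was 0 under each alternative, their median lay between -0.09 and -0.03, and 1 member was higher in MSNs than in other neurons under each. Between direct-like and indirect-like MSNs the count was 2 in place of 1 with ratios minus the median of all genes, with means over nuclei and without the deepest MSN cluster, because GRIA1 crossed the fold (-0.52 in both libraries, -0.52 in both, and -0.51 in both), while GRIK3 stayed past it in all of them. Leaving out possible doublets gave 1, although GRIA1 then had -0.50 in the library labelled shFoxP2 and -0.51 in the shScr library. With a fold of 1, 1 of the partner genes passed between libraries in place of 6. Among single ratios GRIK3 in GLUT+ neurons moved to -0.38 without possible doublets in place of -0.11, and GRIK1 in astrocytes crossed the fold (-0.52 with means over nuclei). Equal cluster weights in both libraries were chosen after seeing the data. They gave the largest shift of a single ratio, GRIA4 in direct-like MSNs at 0.00 in place of 0.38, and moved it to -0.32 in indirect-like MSNs. In both MSN groups 7 of 8 members had enough UMIs, and GRIK1 did not. Its level in MSNs was only 0.0472 UMIs per 10000 in the library labelled shFoxP2 and 0.0558 in the shScr library. No paired analysis was possible because each condition has 1 library and the labels give no replicate numbers, and for the same reason no library could be left out.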
